A study of Mus musculus with 73 samples.

Results

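Elavl2 (also called HuB) and Elavl4 (HuD) are RNA-binding proteins of the Elav family, whose other neuronal member is Elavl3 (HuC). The array carried 4 features for the members among 9596 in all. Elavl4 had 1 feature, and Elavl2 had 3, which are called features A, B and C here and were kept apart throughout. Both genes were chosen by their measured values on these same arrays, because Elavl4 stood among the largest differences between prostate tumors and normal prostate, and between the prostate and seminal vesicle changes. Those prostate contrasts are therefore given as a description, with a standard error and no test.

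Elav proteins bind U-rich and AU-rich elements in messenger RNA, mostly in the 3′ untranslated region, and thereby slow decay of the transcript or change its splicing and translation. The neuronal members appear as neurons leave the cell cycle and are used as markers of postmitotic neurons. Outside the nervous system they are best known from neuroendocrine tumors such as small cell lung cancer, where Elavl4 was first described as an autoantigen of a paraneoplastic syndrome. Epithelia of the organs studied normally carry the ubiquitous relative Elavl1 (HuR) rather than the neuronal forms. Its 2 features were listed under a second gene as well and are not named here.

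The study set tumors driven by SV40 T/t-antigen in different organs beside each other and beside mammary tumors of other genotypes, on 73 arrays with a pair of channels each. On 35 of them a tissue was hybridised against Stratagene Universal Reference RNA, a pool of RNA that served as the common second channel. Prostate (4 normal, 5 tumor) and seminal vesicle (4 normal, 6 tumor) came from C57BL/6 mice, and their tumors from the PB/SV40 T/t-antigen (TRAMP) line, whose transgene is driven by the probasin promoter. Mammary gland (4 normal, 4 tumor) and lung (4 normal, 4 tumor) came from FVB mice, and their tumors carried C3(1)/SV40 T/t-antigen and CC10/SV40 T/t-antigen. All normal tissues of these groups were labelled wild-type. On the other 38 arrays a mammary tumor was hybridised directly against wild-type mammary gland of its own strain. The FVB models on these arrays were C3(1)/SV40 T/t-antigen (5 arrays), MMTV-her2/neu (5), MMTV-myc (4), MMTV-ras (5) and MMTV-PyMT (5). The p53-/-;transplant tumors were from Balb/c (5), and the p53fp/fp;WAP-cre (4) and Brca1 Co/Co;MMTV-cre;p53 (5) tumors from C57BL6/129sv mice. Ages were not given in the sources used here, strain differed between the pairs of organs, and nothing in the labels says that the arrays of a group came from separate animals, so the p-values measure the spread between these arrays. All values are log2 ratios of sample over reference, or of tumor over normal on the direct arrays.

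The normal tissues were checked against markers of the labelled organ. Adipocyte genes were higher in normal mammary gland than in the other normal tissues for 9 of 9 features, milk genes for 8 of 9, and lung epithelial genes in normal lung for 7 of 8. In normal prostate only 2 of 5 secretory features were higher, and no seminal vesicle secretory gene of the list of 9 was measured as a single gene. Against the mean of the other normal tissues, Hoxb13 and Fkbp5 stood at 0.53 and 0.40, and Azgp1, Clu and Spink1 at -0.04, -0.84 and -1.60. The mean of those 5 prostate features was 0.61 to 0.88 in normal prostate and higher in normal seminal vesicle, at 2.05 to 2.41. This short list of mixed direction does not bear out the prostate label, and it does not contradict it. Normal prostate also carried skeletal muscle transcripts: the mean of 15 such features lay between 3.56 and 4.38 on its 4 arrays and between -0.11 and 0.12 on the 5 prostate tumor arrays.

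Because the features of all 3 neuronal Elav genes were high in the same tumors, the sequences around their annotated starts are shown. The E-box forms CAGCTG and CAGATG are in capitals. E-boxes are the binding sites of basic helix-loop-helix factors, including those that drive neuronal differentiation. Each window is the RefSeq sequence from 250 bases before to 50 bases after a start, in build GRCm38.p6, on the minus strand and read 5′ to 3′. For Elavl2 and Elavl3 the most upstream start is given, at chr4:91399935-91400234 and chr9:22051974-22052273. For Elavl4 the most upstream start at chr4:110351862-110352161 is followed by the most upstream one that holds CAGCTG, at chr4:110287478-110287777, which was picked after the motifs had been located.
Elavl2 start 1: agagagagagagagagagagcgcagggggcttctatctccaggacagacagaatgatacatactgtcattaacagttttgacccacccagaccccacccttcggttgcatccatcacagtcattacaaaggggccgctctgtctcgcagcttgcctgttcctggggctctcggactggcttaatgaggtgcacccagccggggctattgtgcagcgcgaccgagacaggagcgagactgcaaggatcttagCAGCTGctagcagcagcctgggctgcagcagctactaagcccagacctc
Elavl3 start 1: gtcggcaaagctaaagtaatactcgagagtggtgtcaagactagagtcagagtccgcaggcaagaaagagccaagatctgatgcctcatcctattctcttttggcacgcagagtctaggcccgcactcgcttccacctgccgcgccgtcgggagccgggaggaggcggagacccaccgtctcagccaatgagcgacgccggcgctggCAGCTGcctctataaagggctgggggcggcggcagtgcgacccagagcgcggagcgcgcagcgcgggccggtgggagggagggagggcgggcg
Elavl4 start 1: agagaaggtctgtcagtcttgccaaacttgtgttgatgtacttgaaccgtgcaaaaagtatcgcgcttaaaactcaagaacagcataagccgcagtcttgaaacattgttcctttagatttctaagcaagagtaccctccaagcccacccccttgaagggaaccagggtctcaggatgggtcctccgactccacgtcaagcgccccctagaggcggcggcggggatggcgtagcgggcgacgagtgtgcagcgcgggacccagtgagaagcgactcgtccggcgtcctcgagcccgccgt
Elavl4 start 2: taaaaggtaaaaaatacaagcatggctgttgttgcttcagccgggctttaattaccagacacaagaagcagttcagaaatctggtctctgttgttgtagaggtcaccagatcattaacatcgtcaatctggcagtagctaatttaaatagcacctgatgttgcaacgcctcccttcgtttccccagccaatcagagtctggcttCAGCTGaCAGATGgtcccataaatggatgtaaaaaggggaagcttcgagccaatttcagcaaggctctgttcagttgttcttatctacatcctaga

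In these windows Elavl2 held CAGCTG from position 2 after the start, Elavl3 from position -43, and the second Elavl4 window from position -46 with CAGATG beside it from position -39, counted from the first base of the transcript. The first Elavl4 window held neither form. Over all annotated starts, CAGCTG was found in 3 of 6 Elavl2 windows, in 2 of 4 Elavl4 windows and in the single Elavl3 window, on either strand. Windows of neighbouring starts overlap, so these are not independent. CAGCTG occurred in 16.3% of 32851 mouse windows of this length and CAGATG in 17.2%. The Elavl3 window also held TATAAA from position -33 (13.6% of windows) and GGGCGG, the core of the Sp1 GC box, from positions -20 and 42 (35.7%). GGGCGG was also in every Elavl2 window but the first, and in no Elavl4 window. Neither of the E2F forms searched, TTTGGCGC (0.514% of windows) and TTTCCCGC (1.07%), nor TTCAGCACC (0.371%), the left part of the element bound by the neuronal repressor Rest, was in any of the 11 windows. GGACAG, its right part, was in 22.2% of all windows and in the first Elavl2 window only. These matches describe letters in the windows and no more.

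Elavl4 separated the prostate tumors from every other reference array. The 5 prostate tumors read 3.62, 3.44, 3.10, 3.68 and 4.97, and the 4 normal prostates 0.04, -0.38, -0.26 and -0.08. No tumor array came near a normal one, and the fifth tumor stood above the rest. The mean difference was 3.93 ± 0.19 (SE), or 15.2-fold, between 3.76 ± 0.71 (SD, n = 5) and -0.17 ± 0.19 (SD, n = 4). Across the 30 reference arrays other than the prostate tumors, Elavl4 lay between -0.43 and 0.26 with a median of -0.02, so its signal there differed little from that of the pooled reference RNA.

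The 3 Elavl2 features showed the same separation at 3 different sizes. Feature A read 1.09, 1.64, 1.40, 1.73 and 2.00 in the prostate tumors against -0.12, -0.21, -0.35 and -0.45 in normal prostate. Feature B read 1.97, 2.41, 2.09, 2.55 and 2.65 against -0.61, -1.0, -1.13 and -0.79. Feature C read 1.39, 1.45, 1.41, 1.55 and 1.54 against -0.41, -0.59, -0.78 and -0.49. In each the tumor and normal ranges were apart. The differences were 1.85 ± 0.15 (3.62-fold) for feature A, 3.21 ± 0.15 (9.28-fold) for B and 2.03 ± 0.11 (4.09-fold) for C. The features thus disagree on the size, and which transcripts each detects is not given in the sources used here. Feature C was the tightest in the tumors, with an SD of 0.07 against 0.35 for A and 0.30 for B. The other 30 reference arrays lay between -1.11 and 0.22 for A, between -1.37 and -0.37 for B and between -0.93 and 0.003 for C.

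**Figure D1:**
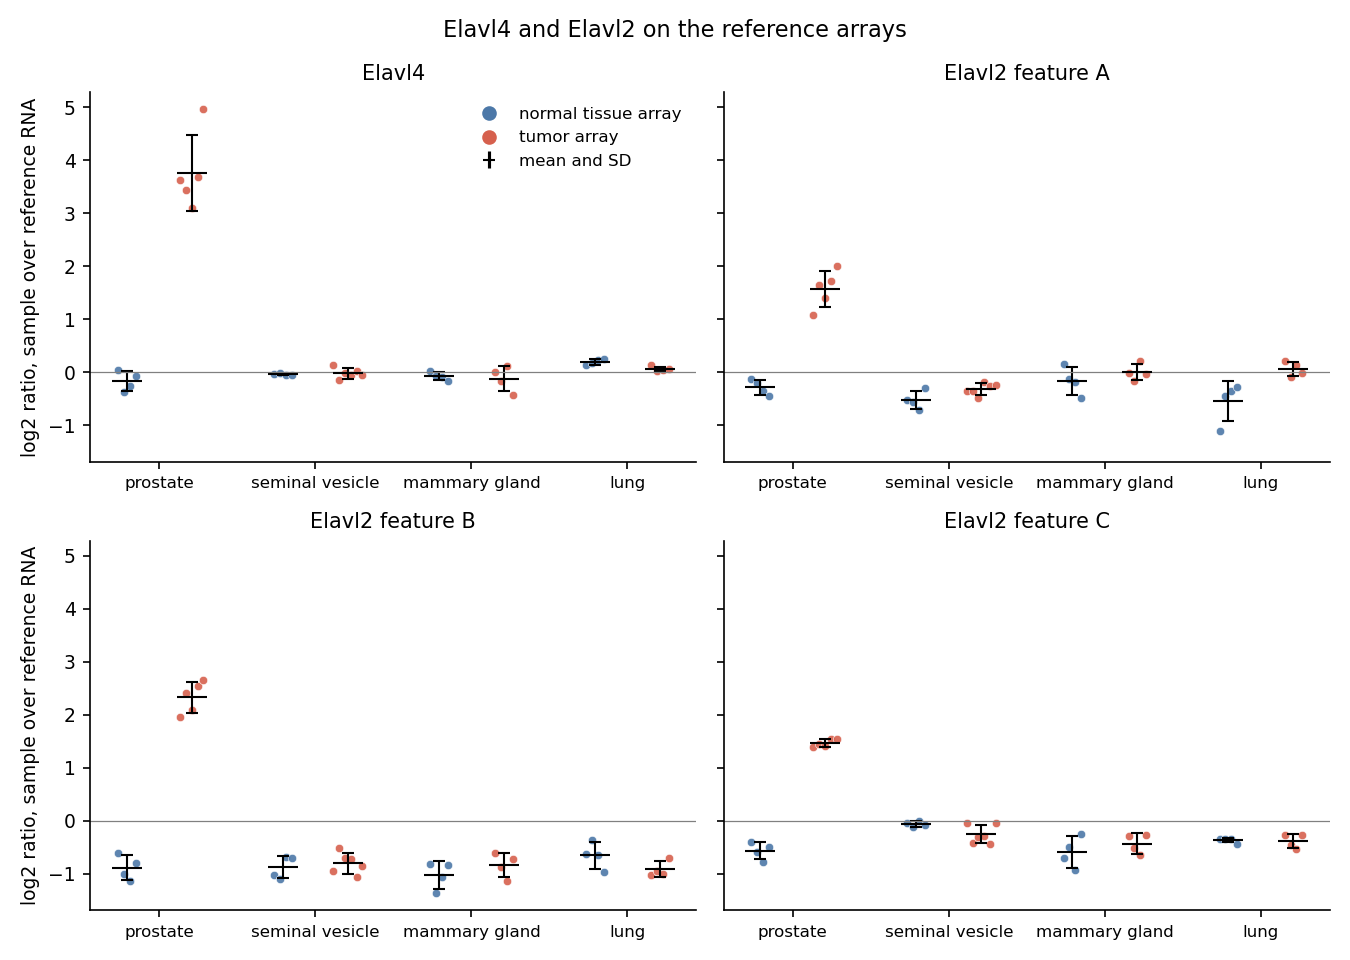
Log2 ratio of sample over reference RNA (vertical axis) for Elavl4 and the 3 Elavl2 features in normal tissue and tumors of 4 organs (horizontal axis). Points are arrays and bars the mean and SD; the 5 prostate tumor arrays sit above all 30 others in each panel, from 3.10 to 4.97 for Elavl4.

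All 4 features were therefore higher in prostate tumors, in a comparison where 29.2% of the features tested were higher and 30.3% lower at an adjusted p under 0.05. The contrast had chosen the members, and nothing is read from that count. The arrays fell into runs of close mAdb numbers, the database numbers in the labels, and 4 of the 5 prostate tumors lay in the last run while 3 of the 4 normal prostates lay in the first. Within the first run, where the fifth tumor met 3 normal prostates, Elavl4 differed by 5.17, feature A by 2.23 and feature B by 3.56. With the run as a fixed factor Elavl4 differed by 4.59, and without the fifth tumor array by 3.63. In bulk tissue a change in the share of cells of a type and a change in RNA per cell cannot be told apart.

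Elavl3 was measured by 3 features, also called A, B and C, listed under its own symbol and an older name of the same gene. Its levels followed those of the members: feature A averaged 1.60 ± 0.56 (SD) in the 5 prostate tumors and 0.01 ± 0.15 in the 4 normal prostates, feature B 1.94 ± 0.44 and -0.05 ± 0.07, and feature C 3.27 ± 0.46 and -0.07 ± 0.16. The differences were 1.58 ± 0.17 (SE), 1.99 ± 0.13 and 3.34 ± 0.15. All 7 features of the 3 neuronal Elav genes were thus higher in the prostate tumors, where 29.2% of all features were higher. The contrast had chosen Elavl2 and Elavl4, and nothing is read from that count. Probe sequences were not given in the sources used here. Signal of 1 related gene on the features of another therefore cannot be told apart from a rise of each.

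On the reference arrays outside the prostate, the members hardly moved with the tumor state, apart from Elavl2 feature A in lung. The direct mammary arrays are described further below. The ratios hold no signal over background, so low readings could not be told from unmeasured ones. In seminal vesicle, whose tumors came from the same TRAMP line, Elavl4 read between -0.15 and 0.14 in 6 tumors (median -0.04) and -0.04, -0.02, -0.05 and -0.05 in 4 normal samples. The ranges overlapped, and the difference was 0.02 ± 0.18 (limma, adjusted p = 0.943). The Elavl2 differences there were 0.21 ± 0.15 for A (adjusted p = 0.266), 0.08 ± 0.15 for B (0.699) and -0.20 ± 0.11 for C (0.13). No member feature passed in seminal vesicle, where 22.0% of all features were higher and 20.7% lower. Elavl3 feature A was the family's exception, falling by 0.67 ± 0.17 (adjusted p = 0.00153) from 0.85 ± 0.13 (SD) in normal seminal vesicle to 0.17 ± 0.18 in its tumors, with no overlap. All 4 normal seminal vesicles shared the third run with 1 mammary tumor, so run and group cannot be told apart for them.

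In mammary gland the C3(1) tumors gave -0.001, -0.17, 0.12 and -0.43 for Elavl4 and the normal glands 0.03, -0.07, -0.09 and -0.16. These ranges overlapped, with a difference of -0.05 ± 0.20 (limma, adjusted p = 0.892). Elavl2 differed by 0.17 ± 0.16 (adjusted p = 0.464), 0.19 ± 0.16 (0.395) and 0.16 ± 0.12 (0.317) for A, B and C. None passed, against 15.5% of features higher and 18.3% lower at this site.

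In lung the picture depended on the feature. Elavl4 read 0.128, 0.027, 0.035 and 0.058 in the CC10 tumors and 0.131, 0.169, 0.239 and 0.256 in normal lung. Every tumor lay below every normal sample, the closest pair barely so, and the difference of -0.14 ± 0.20 did not pass (limma, adjusted p = 0.629). Elavl2 feature A read 0.21, -0.08, 0.13 and -0.01 in the tumors and -1.11, -0.45, -0.35 and -0.27 in normal lung, again without overlap. It rose by 0.60 ± 0.16 (limma, adjusted p = 0.00326), in a comparison where 15.9% of features were higher and 18.5% lower. Features B and C of the same gene did not follow it, at -0.26 ± 0.16 (adjusted p = 0.214) and -0.01 ± 0.12 (0.943), and the mean of the 3 Elavl2 features differed by 0.11 (adjusted p = 0.431). Within the first run feature A differed by 0.39 (adjusted p = 0.0309), and without the first normal lung array by 0.42 (0.0338). An exact two-sided permutation test on these 4 against 4 arrays gave p = 0.0286 for feature A and for Elavl4, the smallest that it can give, and an adjusted p of 0.171 over 12 such tests.

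**Figure D2:**
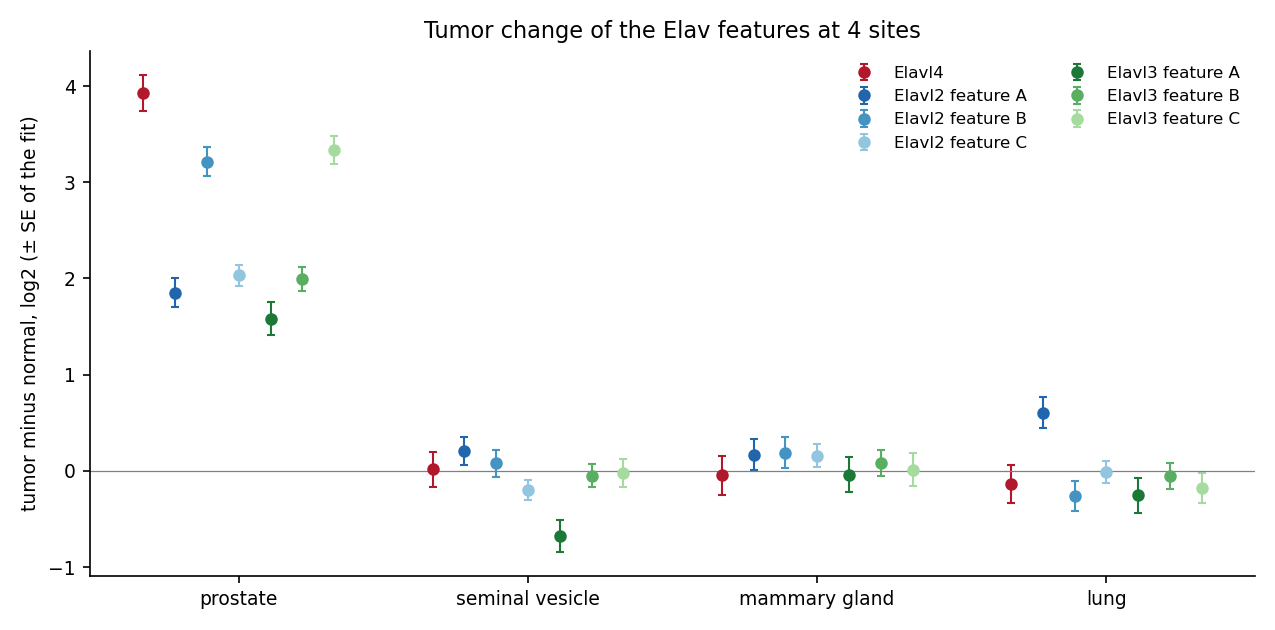
Tumor minus normal difference in log2 ratio (vertical axis, with the SE of the fit as bars) for each feature of Elavl4, Elavl2 and Elavl3 at 4 sites (horizontal axis). All 7 features lie between 1.58 and 3.93 in prostate, and elsewhere between -0.67 and 0.60.

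Set against the other sites, the prostate difference of Elavl4 was larger by 3.91 ± 0.26 (SE) than that of seminal vesicle, by 3.98 ± 0.27 than that of mammary gland and by 4.07 ± 0.27 than that of lung. These contrasts chose the gene and carry no test. For Elavl2 the same 3 gaps were 1.65, 1.69 and 1.25 for feature A, 3.14, 3.02 and 3.48 for B, and 2.23, 1.87 and 2.05 for C. Prostate and seminal vesicle tumors shared the transgene and the strain. In the last run, which held tumors of both organs, Elavl4 read 3.10 to 3.68 in 4 prostate tumors and -0.15 and -0.02 in 2 seminal vesicle tumors, while the normal samples of these organs lay in different runs. Among the other 3 sites no member feature differed in its change between seminal vesicle and mammary gland (background 41.5% of features), seminal vesicle and lung (33.4%) or mammary gland and lung (22.1%). The closest was feature C of Elavl2, whose change was lower in seminal vesicle than in mammary gland by -0.36 ± 0.16 (limma, adjusted p = 0.0657). With every array centred on its median that value was -0.41 and passed (adjusted p = 0.0355). Feature A, whose change was lower in seminal vesicle than in lung by -0.40 ± 0.22, passed with quantile normalization (-0.64, adjusted p = 0.0229) and turned to 0.21 with the run fixed. The change of Elavl3 feature A was lower in seminal vesicle than in mammary gland by -0.63 ± 0.25 (limma, adjusted p = 0.039). Against lung it was lower by -0.42 ± 0.25 and did not pass (0.189).

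Ordered by level, the prostate tumors came first for each of the 4 features. The next group stood 3.57 ± 0.19 (SE) lower for Elavl4 (normal lung), 1.51 ± 0.15 lower for feature A (lung tumors), 2.99 ± 0.15 lower for B (normal lung) and 1.52 ± 0.11 lower for C (normal seminal vesicle). Below that, no group passed against its neighbour in the order, with adjusted p between 0.13 and 0.982 by limma, while 21.8% to 59.4% of all features did in those pairs. For Elavl4 the order ran from normal lung (0.20 ± 0.06, SD) through lung tumors (0.06 ± 0.05), seminal vesicle tumors (-0.02 ± 0.10), normal seminal vesicle (-0.04 ± 0.01), normal mammary gland (-0.07 ± 0.08) and mammary tumors (-0.12 ± 0.24) to normal prostate. Feature B was lowest in normal mammary gland, at -1.02 ± 0.26, and every group but the prostate tumors averaged between that and -0.65. Among the 21 pairs of the 7 groups without the prostate tumors, none passed for Elavl4 or feature B on the values as deposited. For feature A 5 passed, and for feature C 7. Quantile normalization brought calls for feature B against normal seminal vesicle, which are given below. For A, mammary tumors were above normal lung (-0.55 as lung minus mammary; limma, adjusted p = 0.0081, background 29.9%) and above normal seminal vesicle by 0.52 (0.00555, background 57.5%; 0.36 and 0.0546 with quantile normalization). Lung tumors were above normal seminal vesicle by 0.58 (adjusted p = 0.00228, background 60.6%) and above seminal vesicle tumors by 0.37 (0.039, 40.9%), and the fifth pair was the lung comparison above.

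Feature C set normal seminal vesicle apart from the other normal tissues. It read -0.04, -0.12, 0.003 and -0.09 there, above every array of normal prostate, mammary gland and lung, which lay between -0.93 and -0.25. The gap was -0.51 ± 0.12 (normal prostate minus normal seminal vesicle; limma, adjusted p = 0.000497), -0.53 ± 0.12 for normal mammary gland (0.000212) and -0.31 ± 0.12 for normal lung (0.0248). Large shares of all features differed between these pairs, 49.1%, 59.4% and 55.1%. All 4 normal seminal vesicles lay in the third run, which held no other normal tissue, so tissue and run cannot be told apart here. Strain differed as well from mammary gland and lung. Mammary and lung tumors also lay below normal seminal vesicle, by -0.37 and -0.32 (adjusted p = 0.00676 and 0.0177). Seminal vesicle tumors were above normal mammary gland (-0.33 as mammary minus seminal vesicle, adjusted p = 0.0118, background 40.9%) and above normal prostate (-0.31, 0.0208, background 35.7%; -0.20 and 0.249 with quantile normalization). Features A and B of Elavl2 gave no such gap on the values as deposited. Their group means in normal seminal vesicle were -0.52 ± 0.17 and -0.88 ± 0.21, close to normal lung (-0.54) for A and normal prostate (-0.88) for B. With quantile normalization feature B was lower in normal mammary gland than in normal seminal vesicle, by -0.53 (limma, adjusted p = 0.00826). Mammary tumors were then lower than normal seminal vesicle by -0.43 (0.0309). Normal lung and normal prostate differed from it by -0.087 and -0.075 and did not pass (0.717 and 0.77).

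The other neuronal genes were taken from a list of 65 neuronal and neuroendocrine markers, of which 36 genes were tested on 38 features. In the prostate tumors 27 features rose and 2 fell, beside 29.2% of all features higher and 30.3% lower, and the list's median difference was 1.43 against -0.01 for all features. The largest rises were those of Sox11, a transcription factor of immature neurons, at 4.58 ± 0.23 (SE), of Pak3, a kinase of dendritic spines, at 3.43 ± 0.18, and of the microtubule-binding proteins Dcx and Map1b, at 3.28 ± 0.22 and 3.19 ± 0.17. Secretory granule and synaptic vesicle genes rose as well, among them Scg3 by 2.26, Chgb by 1.61 and Syp by 1.50. Ina, a neuronal intermediate filament, fell by 1.05, and the neural adhesion molecule Ncam1 differed by -0.02 (adjusted p = 0.945). These rises are on the same arrays that chose the members, so they are no separate sign for Elavl2 or Elavl4.

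Elsewhere the list's counts were nearer to those of all features. It had 3 features up and 9 down in seminal vesicle tumors (median -0.13), 7 up and 8 down in mammary tumors (-0.03), and 3 up and 7 down in lung tumors (-0.15). The shares of all features higher and lower were 22.0% and 20.7%, 15.5% and 18.3%, and 15.9% and 18.5% at these sites, and with the run fixed 2 features of the list fell in seminal vesicle in place of 9. Individual neuronal genes nonetheless moved where the Elav genes did not. In mammary tumors Cpe, a prohormone-processing enzyme, rose by 2.16, Sox11 by 2.00 and Pak3 by 1.71, while Elavl4 differed by -0.05. In lung tumors Map1b rose by 1.33 and Cpe fell by 1.15. In seminal vesicle tumors Map1b rose by 1.04 and Ncam1 fell by 1.26. A rise of Sox11, Pak3 or Map1b thus occurred both with and without a high level of Elavl4.

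Glial and nerve sheath markers did not rise with the members. Of 6 features for glia and peripheral nerve, 4 fell in the prostate tumors, where 30.3% of all features did, and none rose: Mbp by 1.35, Fabp7 by 1.32, Sox10 by 0.67 and S100b by 0.47. The mean of these features was 0.51 to 0.65 in normal prostate and -0.19 to 0.05 in the tumors. Of 5 features for peripheral neurons, Nefh rose by 0.41 and Prph and Gal fell by 1.04 and 0.52. The mean of the neuronal and neuroendocrine list was 0.01 to 0.05 in normal prostate, 1.28 to 1.67 in the tumors, and -0.19 to 0.16 on all other reference arrays. Its highest array was the fifth tumor, which was also the highest for Elavl4.

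Other cell types moved in the prostate comparison too. All 15 skeletal muscle features were lower in the tumors (median -4.03), all 9 adipocyte features (-2.18) and all 9 epithelial keratin and junction features (-2.48). Of all features, 30.3% were lower in this comparison. The epithelial mean was 1.56 to 1.86 in normal prostate and -0.84 to -0.54 in its tumors, whereas 8 of these 9 features rose in lung tumors, 6 in mammary tumors and 3 in seminal vesicle tumors. The shares of all features that were higher were 15.9%, 15.5% and 22.0% at these sites and 29.2% in prostate. All 16 proliferation features rose in the prostate tumors, as they did in mammary and lung tumors, and 14 rose in seminal vesicle tumors. The part of these shifts in the Elavl2 and Elavl4 difference was not tested.

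Transcripts reported to be bound by Elav proteins were followed on 22 features. In the prostate tumors 11 rose and 6 fell, with a median of 0.43; the falls are near the share of all features that were lower (30.3%), and 29.2% were higher. The leading rises were Ccna2, a cyclin of S phase, at 4.06 ± 0.21 (SE), Marcks, a substrate of protein kinase C, at 3.23 ± 0.24, Gap43, a growth cone protein and a classical target of Elavl4, at 2.68 ± 0.16, and Mycn at 2.29 ± 0.15. Gap43 and Nefm also stood in the neuronal list. Ccna2 rose at every site, by 1.13 in seminal vesicle, 2.77 in mammary and 3.26 in lung tumors, where Elavl4 did not. Of the 22 features, 7 rose and 4 fell in seminal vesicle tumors, 4 and 2 in mammary tumors, and 3 and 13 in lung tumors, where the median was -0.64 and Marcks fell by 1.56. Against the shares of all features, the 13 falls in lung stand beside 18.5%, and the counts in seminal vesicle and mammary tumors beside 22.0% higher and 20.7% lower, and 15.5% and 18.3%.

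Proteins that act on the same elements were also followed. Of 14 features for mRNA decay factors and competitors of the Elav proteins, 12 rose and 1 fell in the prostate tumors (29.2% and 30.3% of all features), with a median of 0.85. Zfp36l1, which speeds the decay of AU-rich messages, fell by 2.42, while its relative Zfp36l2 rose by 1.91 and Hnrnpd (Auf1) by 1.62. At the other sites 9, 6 and 6 of its features rose in seminal vesicle, mammary and lung tumors, where 22.0%, 15.5% and 15.9% of all features were higher. Among 28 features for other neuronal RNA-binding and splicing factors, 12 rose and 8 fell in prostate tumors (median 0.21), the falls near the share of all features. Nova2, a neuronal splicing factor, rose by 0.93, Fmr1 by 1.93, and the 2 features of Mbnl2 fell by 1.73 and 1.58. Khdrbs1 rose by 1.97 on a feature whose partner for the same gene differed by -0.36. Of 8 features for repressors of neuronal genes, 6 rose (29.2% of all features were higher), among them Hdac2 by 1.24 and the Rest corepressor Rcor2 by 1.10, and Sin3a fell by 0.60. Rest itself was not measured as a single gene.

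**Figure D3:**
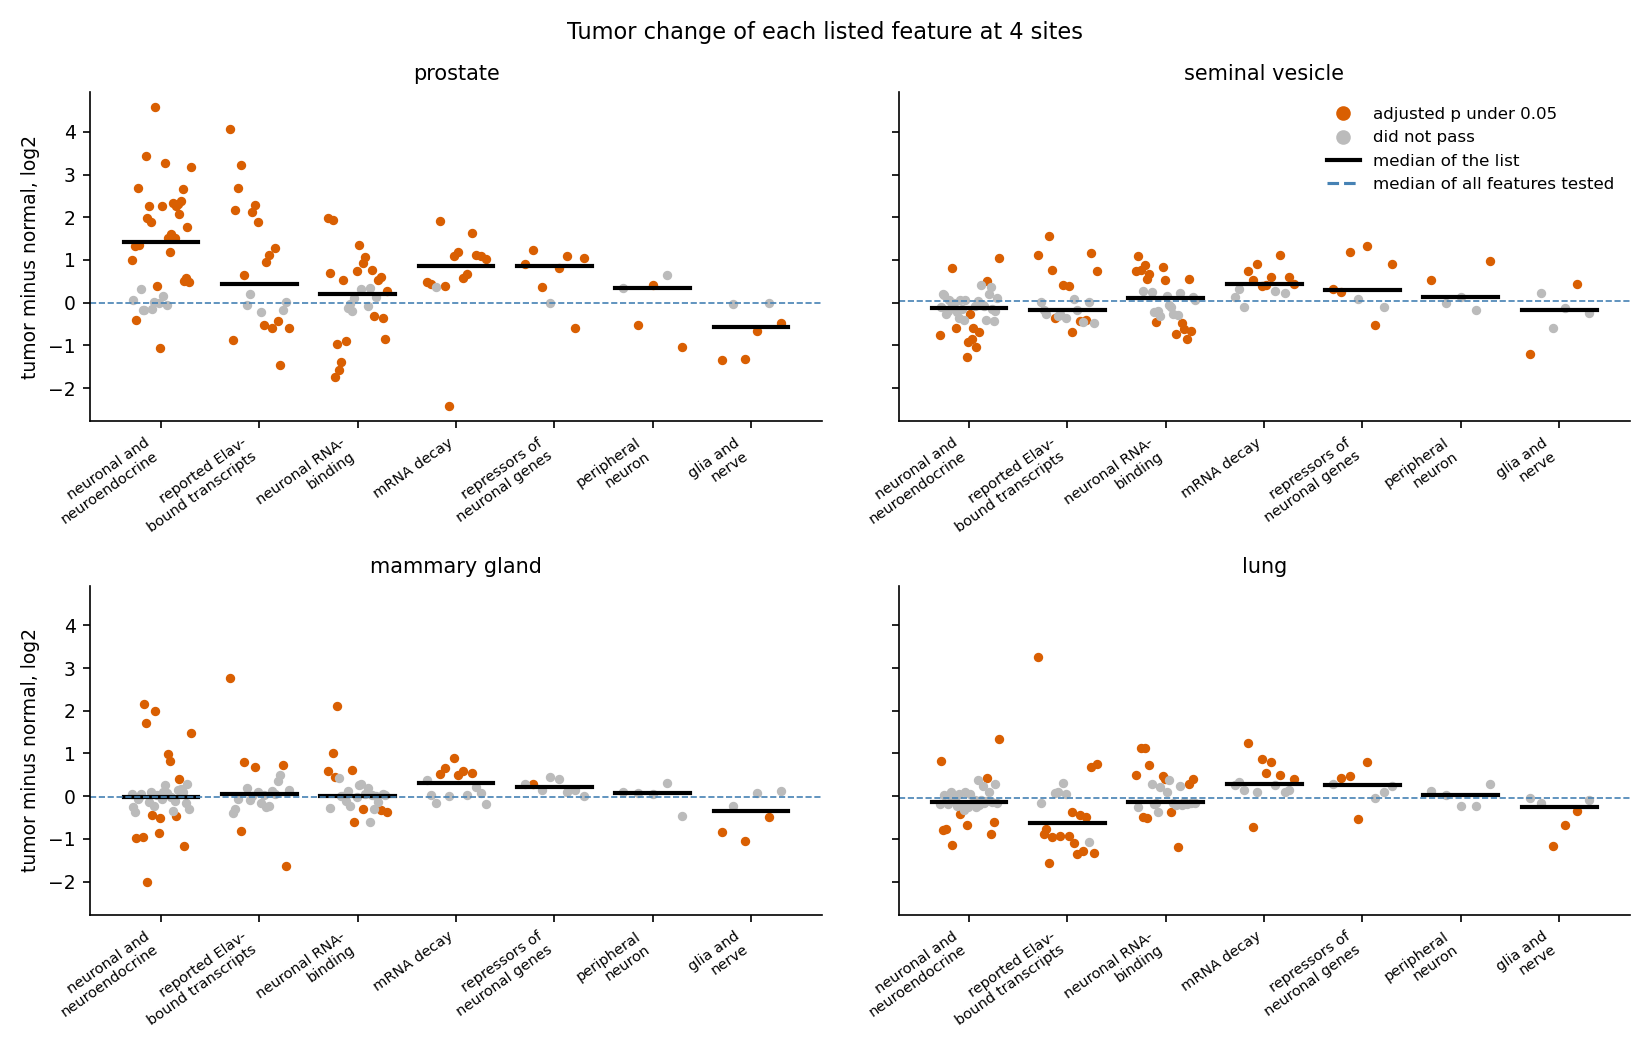
Tumor minus normal difference in log2 ratio (vertical axis) for every tested feature of 7 gene lists (horizontal axis) at 4 sites. Orange points passed an adjusted p of 0.05, black bars are list medians and the dashed line the median of all features; the neuronal and neuroendocrine list has a median of 1.43 in prostate and lies between -0.15 and -0.03 elsewhere.

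The direct mammary arrays carried values for Elavl4 on 36 arrays and for feature C of Elavl2 on 38. Features A and B of Elavl2 had none. Elavl4 ranged from -1.03 to 1.15 and was above 0 on 24 arrays, and feature C from -0.67 to 0.98 and was above 0 on 15. These arrays were not centred, and their medians over all features ran from -0.42 to 0.66, which matters for values of this size.

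Elavl4 was highest in the C3(1)/SV40 T/t-antigen tumors, at 0.07, 1.15, 0.76, 0.25 and 0.74. All 5 arrays were above 0, and the mean of 0.59 ± 0.18 (SE) passed (limma, adjusted p = 0.00633), in a model where 45.6% of features were called. The medians of those arrays ran from 0.04 to 0.66, and after centring the mean was 0.26 (adjusted p = 0.175). Without the second array it was 0.45 (adjusted p = 0.0698). On the reference arrays the C3(1) tumors differed from normal gland by -0.05 ± 0.20 for Elavl4 (limma, adjusted p = 0.892). The Brca1 Co/Co;MMTV-cre;p53 tumors read 0.40, 0.71, -1.03, 0.74 and 0.88, so that 4 arrays were high and the third low. Their mean of 0.34 did not pass (adjusted p = 0.116, background 43.8%), and without the third array it was 0.68 and passed (0.00055). The p53fp/fp;WAP-cre tumors read -0.25, -0.63, -0.82 and -0.48, all below 0, and fell by 0.54 ± 0.20 (adjusted p = 0.0454, background 21.6%). That call ended with centring (-0.44, adjusted p = 0.0576) and without any of arrays 2, 3 and 4 (adjusted p up to 0.212).

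The other models gave small means for Elavl4 that did not pass on the values as deposited. The MMTV-PyMT tumors averaged 0.24 (limma, adjusted p = 0.35, background 22.7%), the p53-/-;transplant tumors 0.23 (0.439, background 14.6%) and the MMTV-ras tumors 0.23 (0.459, 19.7%), the last over 4 of 5 arrays. The MMTV-myc tumors averaged 0.18 (0.574, background 23.3%) and the MMTV-her2/neu tumors -0.19 (0.547, 16.5%), also over 4 arrays for the latter, each of them below 0. With quantile normalization the p53-/-;transplant mean was 0.45 (adjusted p = 0.00805) and the MMTV-PyMT mean 0.34 (0.0411), and both passed, while centring turned MMTV-myc to -0.05 and MMTV-ras to -0.04. The 5 p53-/-;transplant arrays lay between 0.21 and 0.25, the narrowest spread of any model.

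Feature C of Elavl2 was also highest in the C3(1) and Brca1 models. The C3(1) tumors read 0.75, 0.58, 0.56, -0.13 and 0.72, with 4 of 5 above 0 and a mean of 0.50 ± 0.16 (limma, adjusted p = 0.0124). The Brca1 tumors read 0.16, 0.64, -0.09, 0.98 and 0.60, with a mean of 0.46 ± 0.16 (adjusted p = 0.0206). After centring neither passed, at 0.16 (adjusted p = 0.275) and 0.27 (0.0609). Leaving out C3(1) array 1 or 5 (0.43 and 0.44), or Brca1 array 2, 4 or 5 (0.41, 0.33 and 0.43), also ended the respective call. In the other 6 models the means lay between -0.29 (MMTV-her2/neu) and 0.13 (MMTV-myc) and did not pass. For comparison, feature B of Elavl3 averaged 0.55 ± 0.16 in the C3(1) tumors (adjusted p = 0.00382).

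**Figure D4:**
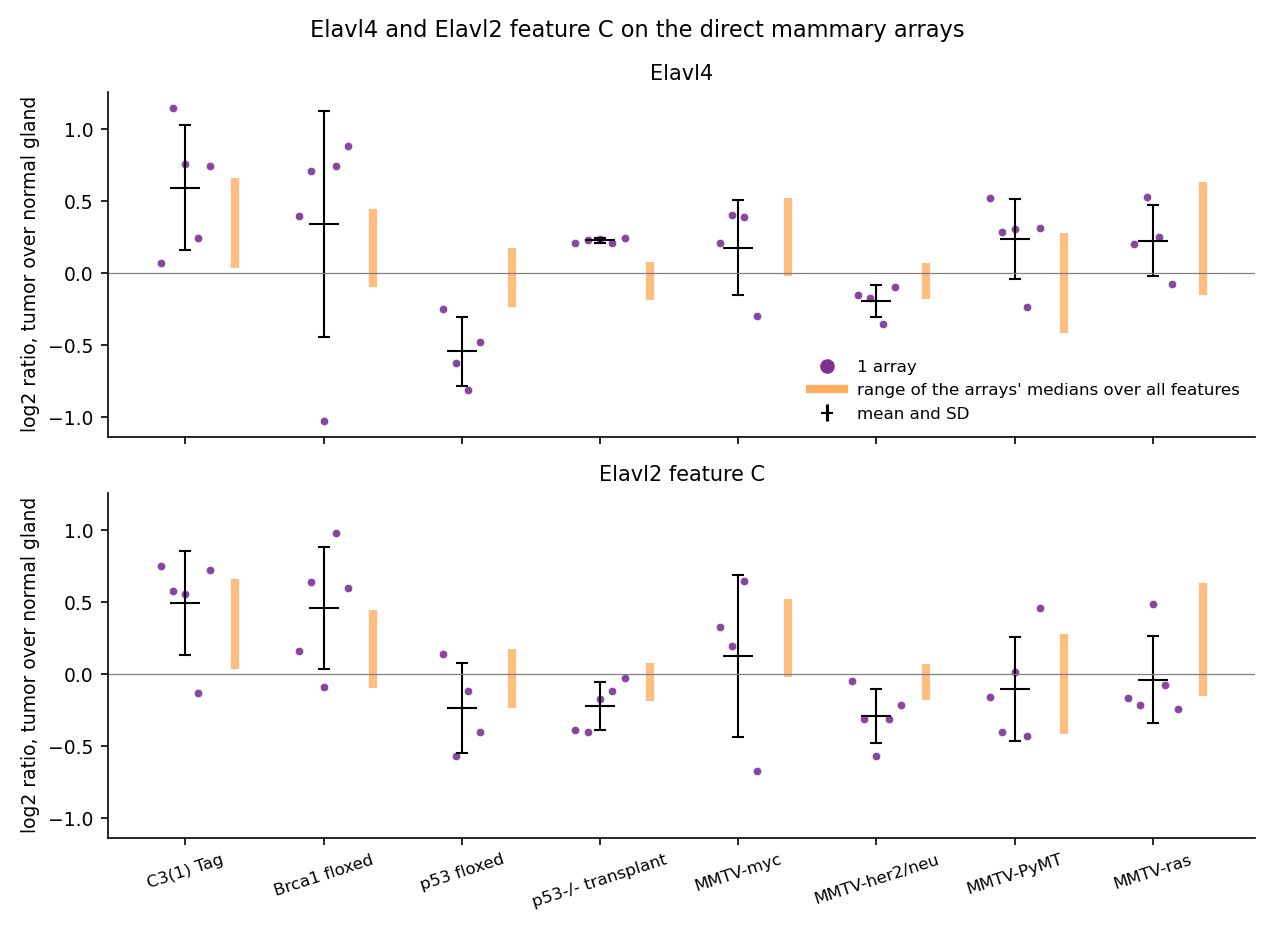
Log2 ratio of mammary tumor over normal gland (vertical axis) for Elavl4 and Elavl2 feature C in 8 models (horizontal axis). Points are arrays, black bars the mean and SD, and orange bars the range of the arrays' medians over all features; the C3(1) means are 0.59 and 0.50, beside array medians of 0.04 to 0.66.

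The levels differed among the 8 models for Elavl4 (limma F = 3.35, adjusted p = 0.0232) and for feature C (F = 3.51, adjusted p = 0.0181), as they did for 41.5% of features. After centring these were 2.27 (adjusted p = 0.0988) and 2.48 (0.0735). No model differed from its neighbour in the order. Among the 28 pairs of models, 3 differed for Elavl4. The C3(1) tumors were above the p53fp/fp;WAP-cre tumors by 1.14 (adjusted p = 0.00201, background 24.0%), which also passed after centring (0.70, adjusted p = 0.0391). They were above the MMTV-her2/neu tumors by 0.79 (0.034, background 20.0%; centred 0.40, 0.293), and the Brca1 tumors were above the p53fp/fp;WAP-cre tumors by 0.88 (0.0246, background 12.9%; centred 0.59, 0.0849).

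For feature C, 5 of the 28 pairs differed. The Brca1 tumors were above the MMTV-her2/neu tumors by 0.75 (limma, adjusted p = 0.018, background 20.7%), which passed after centring as well (0.53, adjusted p = 0.0211), and above the p53-/-;transplant tumors by 0.68 (0.0383, background 16.2%; centred 0.46, 0.0531). The C3(1) tumors were above the MMTV-her2/neu, p53fp/fp;WAP-cre and p53-/-;transplant tumors by 0.79, 0.73 and 0.72 (adjusted p = 0.0151, 0.0259 and 0.0209, the last against a background of 25.9%). After centring these were 0.42, 0.30 and 0.35, and none passed. Strain also differed between the FVB models and the p53 and Brca1 models, and between the Brca1 and p53-/-;transplant tumors. Genotype and strain therefore cannot be told apart in those pairs. The Brca1, p53fp/fp;WAP-cre and p53-/-;transplant arrays shared no run of close mAdb numbers with any other model. Run and model therefore cannot be told apart in the pairs that hold them, including the Brca1 and p53fp/fp;WAP-cre pair of the same strain. The neuronal list moved with the array medians in the same models: 14 of its 33 features rose and 2 fell in C3(1) tumors and 11 rose and 3 fell in Brca1 tumors, where 45.6% and 43.8% of all features were called in either direction, with medians of 0.37 and 0.27 against 0.35 and 0.23 for all features.

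The features whose group means were most like those of Elavl4 over the 8 tissue groups were found among 9532 features by Pearson's r, which is given as a description. First came feature B of Elavl2 (r = 0.997). It was followed by Ctnna2, the neuronal alpha-catenin (0.994), Brd2, a bromodomain protein (0.994), Cplx2, a complexin of synaptic vesicle release (0.991), Myt1, a zinc finger factor of neural differentiation (0.989), Cdk5r1, the p35 activator of Cdk5 (0.986), Ap3b2, the neuronal form of an adaptor subunit (0.984), and the zinc finger gene Zfp37 (0.984). Their prostate differences ran from 1.28 (Zfp37) to 3.21 (Elavl2 feature B). All of these values rest on the prostate tumors. Over the 7 other groups r with Elavl4 was 0.60 for feature B, 0.62 for Cplx2 and 0.57 for Brd2, 0.18 for Ctnna2 and -0.13 for Ap3b2.

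**Figure D5:**
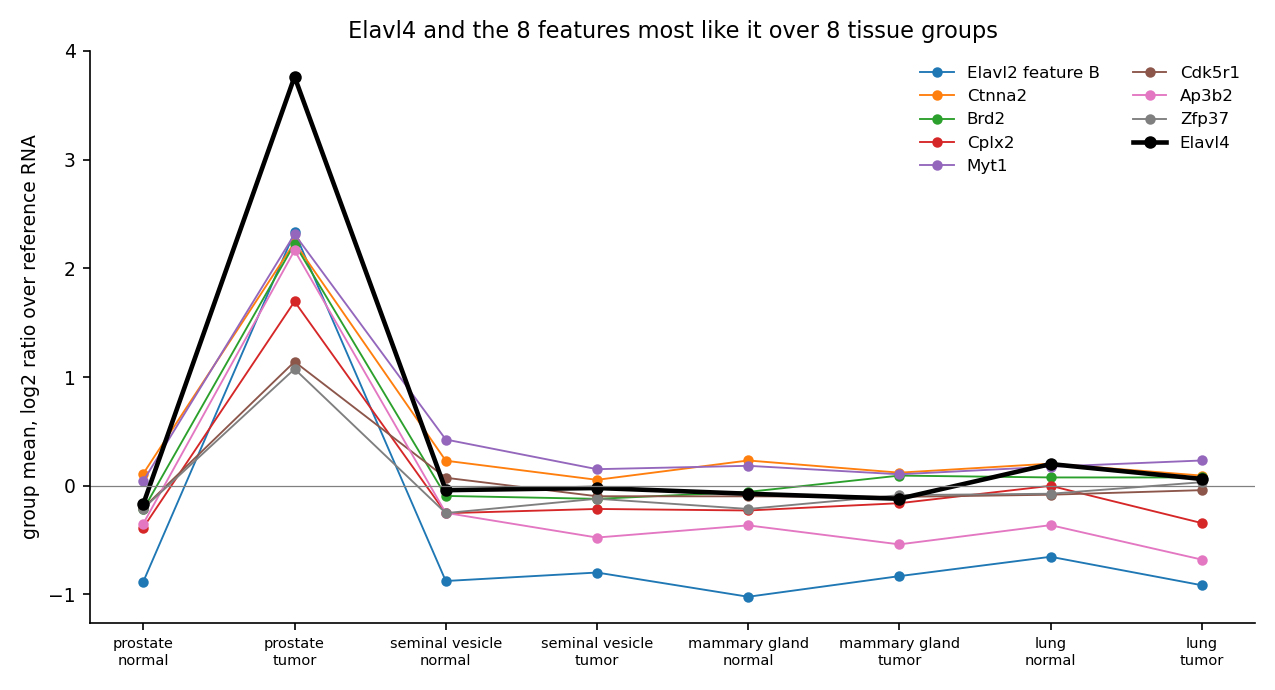
Mean log2 ratio over reference RNA (vertical axis) in each of 8 tissue groups (horizontal axis) for Elavl4 (black) and the 8 features most like it. All 9 lines peak in the prostate tumors, where Elavl4 averages 3.76 and Elavl2 feature B 2.33.

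The Elavl2 features had partly different neighbours. Feature B shared Ctnna2, Brd2, Cplx2, Myt1 and Ap3b2 with Elavl4, and added Clasp1 and the amine-synthesis enzyme Ddc. Feature C was most like Dcx (r = 0.991), then Cdk5r1, Myt1, Bmerb1, Psd2, Crmp1, Thsd7a and Jph4. Over the 7 groups without the prostate tumors r for these was between 0.57 and 0.85. Feature A shared none of them: its closest features were Dab1 (r = 0.984), Sema5b, Zfp637, Eif4g2, Cacna1a, Kif14, Usp48 and Rsrc1. Without the prostate tumors r for these was between 0.715 and 0.914, and for the neighbours of feature B between -0.128 and 0.868. Those 7 groups also entered the choice of the neighbours. Over those 7 groups feature A ran against the other members, with r of -0.34 with Elavl4, -0.52 with feature B and -0.48 with feature C, whereas B and C had an r of 0.34 with each other. The members thus shared a single large step, in the prostate tumors, and little of their small variation elsewhere.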

How the data were processed

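The deposited value table gave 1 log2 ratio per feature and array for 9596 features on 73 arrays, and how the authors normalized it was not given in the sources used here. Per the labels, tissue was labelled with Cy3 and the reference RNA with Cy5; on the direct arrays the tumor was in the second channel. The base of the logarithm and the direction are not stated with the deposited values. Base 2 was taken because the selection rule in the series text then returned 2633 features of 9532 against 2638 stated (3764 with natural and 4168 with decimal logarithms), and the direction because adipocyte and milk genes were high in normal mammary gland and lung epithelial genes in normal lung (the prostate markers gave no such sign), and because the C3(1) changes of both sets of arrays correlated across 7928 features (r = 0.481, rho = 0.352; features are not independent replicates). Reference arrays held values for 9244 to 9572 features with medians of -0.047 to 0.009, direct arrays for 7042 to 7934 with medians of -0.416 to 0.663. No per-spot intensity or background was used, and precision rests on how many arrays each group had.

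The platform annotation gave 1 gene symbol for 7486 features (7395 matched RefSeq by gene ID), several for 483 and none for 1627. Several symbols were treated as 1 gene only where all led to the same RefSeq gene (114 features). Each feature was fitted with limma 3.58.1 in R 4.3.3, with group means over the 35 reference arrays and, separately, the 38 direct arrays. Features with at least 3 values in each group compared were tested, and p-values were adjusted over all of them by the Benjamini-Hochberg method, with a threshold of 0.05. An estimate is followed by its SE unless an SD is named. The scripts were tested on simulated data. Alternatives were median centring, quantile normalization, robust trended variances, features valued on every array, only the groups compared, the run of mAdb numbers (fixed, random, first run only), a replicate block, each array left out, and features of 1 gene averaged. No duplicated array was found.

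The members, lists and tests were chosen with earlier results of these data known. Named genes were the members, the other Elav genes, the features of each list with the largest differences that passed, Rest, and the 8 features most like each member; Scg3, Chgb, Syp, Ncam1, Nova2 and the lower-ranked genes of a list were named after their values were seen. Promoter windows came from RefSeq (GRCm38.p6).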

Additional observations from a re-analysis of the deposited data

Results flagged for a closer look

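Of 48 sets of 4 to 6 arrays examined for a single outlying array of Elavl4 or Elavl2, 3 had one, and chance alone marks about 1 in 20. The third Brca1 Co/Co;MMTV-cre;p53 array read -1.026 for Elavl4, far below the other 4. The fourth C3(1)/SV40 T/t-antigen array read -0.134 for feature C of Elavl2, below the other 4, and the third MMTV-ras array read 0.488 for the same feature, above the other 4. The levels differed among the 8 direct models for Elavl4 (limma F = 3.351, adjusted p = 0.0232) and for feature C (F = 3.514, adjusted p = 0.0181); neither passed after the arrays were centred.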

How the results depend on the processing

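Over 102 results, 934 values under an alternative kept their direction and their side of the threshold, 63 moved, 24 small differences changed sign, 33 calls were lost and 5 gained; the cause was not tested. The tumors' standing above normal prostate held for all 4 member features under every alternative run. With quantile normalization the prostate difference of Elavl4 was 4.73, and its gaps to seminal vesicle, mammary gland and lung were 4.75, 4.78 and 4.89; those of Elavl2 feature B to the first pair were 3.69 and 3.35. With the run fixed, Elavl4 gave 4.59 (gap to lung 4.93), feature A 2.32 (gaps to mammary gland and lung 2.19 and 1.83) and feature B a gap to seminal vesicle of 2.78. In the first run only, Elavl4 gave 5.17 (gaps to mammary gland and lung 5.14 and 5.32), feature A 2.23 (2.16 and 1.83) and feature B 3.56 (3.35 and 3.79). The mean of the 3 Elavl2 features gave 2.37 in prostate.

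Differences near 0 turned sign: Elavl4 in seminal vesicle (-0.012 centred, -0.016 with quantiles, -0.013 to 0.046 leaving out arrays) and mammary gland (0.052 with the run fixed, 0.026 in the first run, -0.125 to 0.055 leaving out arrays), feature B in seminal vesicle (-0.23 with quantiles), and feature C in lung (0.045 in the first run, -0.051 to 0.038 leaving out arrays). The mean of the 3 Elavl2 features was 0.028 in seminal vesicle and 0.11 in lung (adjusted p = 0.431). Between seminal vesicle and mammary gland, the change of feature A differed by -0.01 centred and -0.18 with quantiles, that of B by 0.42 with the run fixed, and that of C by -0.41 centred (adjusted p = 0.0355). Between seminal vesicle and lung, A gave -0.64 with quantiles (adjusted p = 0.0229) and 0.21 with the run fixed, and C 0.004 with the run fixed. The lung rise of feature A (0.604) had an adjusted p of 0.171 by the exact permutation test and of 0.00124 to 0.0338 by the limma alternatives on the feature itself.

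On the direct arrays centring gave, for Elavl4, 0.26 in C3(1), -0.44 in p53fp/fp;WAP-cre, -0.046 in MMTV-myc, -0.038 in MMTV-ras tumors and F = 2.27, and for feature C 0.16 in C3(1), 0.27 in Brca1, -0.10 in MMTV-myc tumors and F = 2.48. Quantiles gave Elavl4 0.30 (C3(1)), -0.36 (p53fp/fp;WAP-cre), 0.34 (MMTV-PyMT, adjusted p = 0.0411) and 0.45 (p53-/-;transplant, 0.00805), and feature C 0.22 (C3(1)). Leaving out arrays, Elavl4 ranged over 0.454 to 0.724 (C3(1)), 0.206 to 0.683 (Brca1) and -0.64 to -0.452 (p53fp/fp;WAP-cre), and feature C over 0.431 to 0.653 (C3(1)), 0.329 to 0.597 (Brca1), -0.05 to 0.39 (MMTV-myc) and -0.172 to 0.01 (MMTV-ras).

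Of the neuronal list, 2 features fell in prostate tumors, and 1 with quantiles, only the groups compared, or the run fixed or random (1 to 2 leaving out arrays); 9 fell in seminal vesicle tumors, and 2 with the run fixed. Over all features, 2103 rose and 1981 fell in seminal vesicle tumors, against 1019 and 1193 with quantiles and 657 and 569 with the run fixed. Features valued on every array, a smaller set, gave fewer calls: 1463 (Brca1, from 3484), 1254 (C3(1), 3622), 742 (MMTV-PyMT, 1807), 776 (MMTV-myc, 1850), 584 (MMTV-her2/neu, 1310), 617 (MMTV-ras, 1562), 689 (p53fp/fp;WAP-cre, 1716), 449 (p53-/-;transplant, 1162) and 1363 among models (3299). Quantiles gave 2944 (MMTV-PyMT), 3047 (MMTV-her2/neu), 2634 (MMTV-ras) and 3019 (p53-/-;transplant). Leaving out arrays gave 1061 to 1678 (MMTV-PyMT), 1046 to 1978 (MMTV-myc), 764 to 977 (MMTV-her2/neu), 749 to 1591 (MMTV-ras), 842 to 1388 (p53fp/fp;WAP-cre) and 739 to 1015 (p53-/-;transplant).

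With a replicate block, Elavl4 differed by 3.63 in prostate, feature A by 0.60 in lung (adjusted p = 0.00757), no call on a member changed, and 5 neuronal features rose in seminal vesicle tumors in place of 3. The numbers did not pair the samples: of 16 same-numbered pairs, 2 correlated over 0.1 (range -0.228 to 0.216). The deposited ratios hold no signal over background, so low members could not be told from unmeasured ones.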

Other observations

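Over the 8 direct mammary models, the group means most like those of Elavl4 among 7948 features were those of Anks3 (r = 0.97), Fndc3a (0.956) and Nol10 (0.955). Those most like feature C of Elavl2 began with Dlg2, a synaptic scaffold protein (r = 0.987), and included Rrm2, a subunit of ribonucleotide reductase. None of these was among the features named for likeness over the tissue groups. The points are means of arrays whose medians differ between models, and the correlations are descriptions.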
